A study of Homo sapiens with 6 samples.

Results

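The mitochondrial carriers described here are the protein-coding genes whose symbol is SLC25A followed by a number. There are 48 of them among 58735 genes, of which 19951 are protein-coding, in a deposited RNA-seq table. The libraries come from Ishikawa, an established line of human endometrial adenocarcinoma cells. The cells carried either an siRNA against TCF19 (siTCF19, 3 libraries) or a negative control siRNA (siNC, 3 libraries), both delivered with a lipid reagent, and RNA was taken 48 hours later. TCF19 encodes a nuclear factor that can bind modified histones, and the comparison asks how carrier transcripts differ when it is knocked down. The knockdown was transient and in 1 cell line, and the labels name no separate cultures behind the replicate numbers, so each p-value here reflects spread among libraries that may be technical.

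Mitochondrial carriers are small membrane proteins that move metabolites across the inner mitochondrial membrane, which is otherwise closed to charged molecules. Each is built from repeats of the same membrane-spanning module and takes a narrow set of substrates, such as ADP against ATP, phosphate, citrate, malate against oxoglutarate, aspartate against glutamate, coenzymes or acylcarnitines. The genes sit in the nucleus, and the proteins reach the inner membrane through the TOM pore and the TIM22 route. Not every member of the family works there: SLC25A17 is a peroxisomal carrier and SLC25A46 an outer membrane protein linked to mitochondrial shape.

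The siTCF19 libraries held 14680022 to 15529688 counts and the siNC libraries 14872698 to 16244705 counts. TCF19 had 675, 529 and 606 counts in siTCF19, against 2572, 2905 and 2756 in siNC, a log2 fold change of -2.20 ± 0.06 (SE; edgeR quasi-likelihood test, adjusted p = 6.15e-29). Epithelial markers were well expressed in both groups (EPCAM at 493 CPM in siTCF19 and 505.5 CPM in siNC, where CPM is counts per 1000000 of TMM-scaled library size), and of 6 such markers CDH1 and KRT19 were called higher, KRT8 and KRT18 lower. Of 10 markers of fibroblasts, immune cells and endothelium, COL1A1 stood at 26.7 CPM in siTCF19 and 17.9 CPM in siNC, VWF at 15.5 CPM in siTCF19 and 5.13 CPM in siNC, and the other 8 averaged under 1 CPM in each group, DCN being at 0 in each library. COL1A1 and VWF were called higher, and the endothelial cadherin CDH5 was called lower, with 5, 4 and 3 counts in siTCF19, against 12, 14 and 19 in siNC (log2 fold change -1.89, edgeR adjusted p = 0.00216). The part of these markers in the carriers' values was not tested. In bulk RNA, fewer cells with a transcript and less of it per cell cannot be told apart.

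Of the 48 carriers, 41 passed the filter on low counts and were tested, and 6 rose, 13 fell and 22 were not called at an adjusted p under 0.05. Over all genes, 41.5% of 17299 tested genes were called, 20.7% as higher and 20.8% as lower, and 54.4% were called among those averaging 10 CPM or more. The carriers' count was near that background: 19 of 41 were called, and 19 of the 36 that averaged 10 CPM or more. With libraries scaled by their totals alone, 8 carriers were called higher and 9 lower, and the share of higher calls among all called genes was 61.4%, against 49.9% with TMM scaling. The siTCF19 libraries lay wholly above siNC for 7 tested carriers and wholly below for 13, where the shares over all tested genes were 24.4% and 24.9%.

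The changes were mostly small. SLC25A11 was the 1 carrier called with a change of at least 1.5-fold, downward, and 0 were called with such a rise, against 5.38% of tested genes called with such a fall and 6.4% with such a rise. The median log2 fold change of the 41 carriers was -0.04, beside 0.00091 for all tested genes, and the median size of the change, regardless of sign, was 0.20 for carriers and 0.24 for all. The carriers had a median level of 43.1 CPM, against 19.8 CPM over tested genes. Among the 41 carriers the log2 fold change was lower at higher mean CPM (rank correlation -0.35, and -0.24 over 35 carriers without the 6 highest), a description over genes that share their libraries. Over all tested genes the same rank correlation was -0.07.

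**Figure D1:**
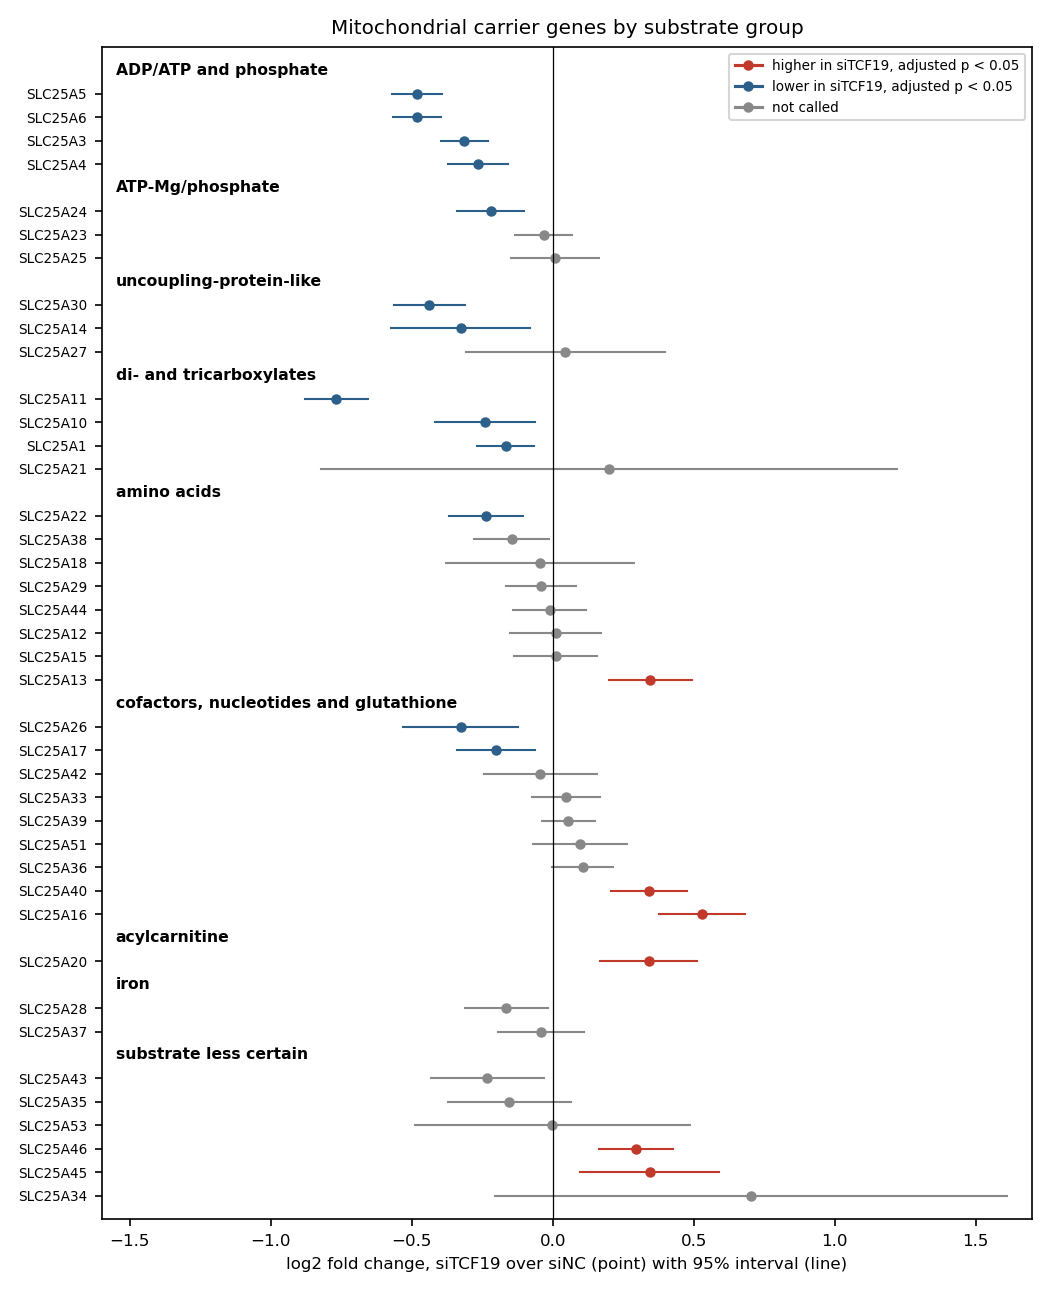
Log2 fold change of siTCF19 over siNC (horizontal axis) for 40 of the tested carriers, grouped by substrate, with points for the estimate, lines for its 95% interval and colour for the call at an edgeR adjusted p under 0.05. The 4 tested ADP/ATP and phosphate carriers lie left of 0, while the cofactor and nucleotide carriers hold 2 rises and 2 falls.

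As a share of the library, the 48 carriers together took 0.366%, 0.362% and 0.373% of counts in siTCF19, against 0.404%, 0.413% and 0.406% in siNC. The groups did not overlap, and the mean share was 0.367% in siTCF19 and 0.407% in siNC. Summed over the carriers, the level was 3604 ± 60.3 CPM in siTCF19 and 4169 ± 85.6 CPM in siNC (SD, n = 3 each). Most of that difference lay in the 5 ADP/ATP and phosphate carriers, which summed to 1435 to 1490 CPM in siTCF19 and 1904 to 1981 CPM in siNC. It was not shared by all groups: the carriers of cofactors, nucleotides and glutathione summed to 847 to 873 CPM in siTCF19 and 809 to 843 CPM in siNC. In the same libraries the transcripts of the mitochondrial genome took 3.92% to 4.08% of counts in siTCF19 and 3.49% to 3.65% in siNC, so they differed in the other direction. The part of the mitochondrial genome's difference in the carriers' share was not tested.

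The carriers spanned a wide range of levels. On FPKM, the authors' length-scaled unit, SLC25A6 was highest (218 ± 6.29 FPKM in siTCF19 and 304 ± 9.49 FPKM in siNC), followed by SLC25A5, SLC25A39 and SLC25A1, and these 4 genes held 59.8% of all carrier FPKM in siTCF19 and 62.9% in siNC. SLC25A6 and SLC25A5, which make the ADP/ATP carriers of most proliferating cells, did not differ from each other on FPKM beyond their spread (212 ± 5.98 FPKM for SLC25A5 in siTCF19 and 296 ± 7.71 FPKM in siNC). FPKM divides by 2164 annotated exonic bases for SLC25A6 and 1500 for SLC25A5. On CPM, without that division, SLC25A6 was higher, at 475 CPM against 321 CPM for SLC25A5 in siTCF19. In siNC the means were 663 CPM for SLC25A6 and 448 CPM for SLC25A5. SLC25A3, the phosphate carrier, had the most counts but came after those 4 on FPKM, a unit that divides by all 8896 exonic bases annotated to it. At the other end, SLC25A31, the ADP/ATP carrier of the testis, had 0 counts in all 6 libraries, which allows up to 0.190 to 0.206 CPM (3 counts per library, counting error only).

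Promoter sequence is shown for 6 called carriers: the 3 most abundant of the ADP/ATP and phosphate group, SLC25A11 with the largest fall, and SLC25A13 and SLC25A40, which rose. SLC25A16, with the largest called rise, has no entry in the table used. SLC25A30, SLC25A37, SLC25A35, SLC25A32, SLC25A41 and SLC25A2 are also without an entry, and 40 of the 48 carriers were matched. Each window runs 5′ to 3′ on the gene's strand from 250 bases before the RefSeq start to 50 after it (GRCh38.p14): SLC25A6 chrX:1392064-1392363 minus strand, SLC25A5 chrX:119468194-119468493 plus strand, SLC25A3 chr12:98593436-98593735 plus strand, SLC25A11 chr17:4939997-4940296 minus strand, SLC25A13 chr7:96322049-96322348 minus strand and SLC25A40 chr7:87876311-87876610 minus strand. The RefSeq start is not the 5′ end of the gene as counted. The SLC25A6 window lies wholly inside the counted gene, whose 5′ end is at 1392724. In the other windows shown, the counted gene's 5′ end lies within the window. Capitals mark matches, on either strand, to the GC box GGGCGG, the CCAAT box, the E-box CACGTG, the cyclic AMP response element TGACGTCA, the ETS site CCGGAAG, the NRF1 core TGCGCA and the TATA box TATAAA.
SLC25A6: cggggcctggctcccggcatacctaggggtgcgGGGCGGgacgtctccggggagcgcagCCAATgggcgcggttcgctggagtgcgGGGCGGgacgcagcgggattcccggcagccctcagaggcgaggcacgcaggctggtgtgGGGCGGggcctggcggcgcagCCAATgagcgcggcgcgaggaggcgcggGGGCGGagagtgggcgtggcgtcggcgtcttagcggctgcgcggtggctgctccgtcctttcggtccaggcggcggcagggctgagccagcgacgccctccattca
SLC25A5: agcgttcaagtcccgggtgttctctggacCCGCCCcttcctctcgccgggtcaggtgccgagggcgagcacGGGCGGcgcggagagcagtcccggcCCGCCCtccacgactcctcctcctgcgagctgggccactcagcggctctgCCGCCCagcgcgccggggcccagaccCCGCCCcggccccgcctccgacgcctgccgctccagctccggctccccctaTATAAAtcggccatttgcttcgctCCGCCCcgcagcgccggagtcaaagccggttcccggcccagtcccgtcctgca
SLC25A3: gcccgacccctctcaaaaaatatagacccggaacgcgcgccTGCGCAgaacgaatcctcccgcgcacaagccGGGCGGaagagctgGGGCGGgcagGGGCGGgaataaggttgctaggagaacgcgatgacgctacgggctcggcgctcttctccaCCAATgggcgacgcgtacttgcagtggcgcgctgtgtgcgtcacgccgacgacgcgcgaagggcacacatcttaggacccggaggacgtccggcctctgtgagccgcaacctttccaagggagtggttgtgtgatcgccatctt
SLC25A11: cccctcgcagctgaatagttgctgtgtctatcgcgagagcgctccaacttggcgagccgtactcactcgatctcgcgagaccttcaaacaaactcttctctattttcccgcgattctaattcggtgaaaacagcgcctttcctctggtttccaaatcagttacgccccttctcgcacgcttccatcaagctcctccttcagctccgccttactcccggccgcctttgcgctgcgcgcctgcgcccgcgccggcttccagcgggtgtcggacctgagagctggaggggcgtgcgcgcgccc
SLC25A13: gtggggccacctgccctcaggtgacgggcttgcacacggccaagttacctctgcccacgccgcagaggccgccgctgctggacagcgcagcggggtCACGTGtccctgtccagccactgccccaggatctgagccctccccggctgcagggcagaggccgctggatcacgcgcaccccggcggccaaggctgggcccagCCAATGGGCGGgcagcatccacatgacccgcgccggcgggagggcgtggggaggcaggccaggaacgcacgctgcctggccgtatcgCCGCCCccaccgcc
SLC25A40: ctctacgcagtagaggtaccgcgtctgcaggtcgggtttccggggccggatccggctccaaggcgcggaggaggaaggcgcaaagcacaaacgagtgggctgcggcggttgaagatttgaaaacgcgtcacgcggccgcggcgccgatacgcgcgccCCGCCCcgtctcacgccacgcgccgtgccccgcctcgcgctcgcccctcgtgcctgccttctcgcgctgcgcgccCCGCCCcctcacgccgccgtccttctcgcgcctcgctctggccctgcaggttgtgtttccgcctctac

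The windows of SLC25A6 and SLC25A5 held 4 and 6 GC boxes. They differed in that SLC25A6 had CCAAT boxes 191 and 84 bases before the RefSeq start, and SLC25A5 a TATA box 27 bases before it. SLC25A3 had an NRF1 core 209 bases before the start, SLC25A13 an E-box 154 bases before it, and SLC25A11 none of the 7 motifs. Over the 40 carrier windows, the GC box was in 70.0% (58.5% of 15843 protein-coding windows), the CCAAT box in 47.5% (36.4%) and the E-box in 17.5% (8.88%). The ETS site was in 8 of the 40 (14.2% of all windows), the NRF1 core in 12.5% (10.8%), the TATA box in 7.5% (9.63%) and the cyclic AMP response element in 7.5% (2.59%). By call, the windows came from 5 carriers that rose, 12 that fell and 23 that were not called or not tested. The GC box was in 4 of the 5 that rose, 8 of the 12 that fell and 16 of the other 23, and the CCAAT box in 1, 6 and 12 in the same order. The E-box was in 2 that rose, 0 that fell and 5 of the others, and the ETS site in 2 that rose, 4 that fell and 2 of the others. The NRF1 core was in 0, 1 and 4, the TATA box in 0, 2 and 1, and the cyclic AMP response element in 0, 0 and 3, again in that order. The median GC content was 66.2% in the carrier windows and 62.7% over all windows. It was 67.0% in the windows of carriers that rose and 73.5% in those of carriers that fell. The part of base content in the motif shares was not tested. None of the motif searches allowed a mismatch, and a match describes the letters in the window and no binding.

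The ADP/ATP and phosphate carriers, which feed ADP and phosphate to ATP synthase and export ATP, fell in all 4 of the tested genes, and SLC25A31 was not tested. SLC25A6 (chromosome X, 1386152 to 1392724, minus strand, hg38, in the region shared by X and Y) had 7546, 6916 and 7541 counts in siTCF19, against 9634, 10734 and 10057 in siNC. The groups were far apart, with means of 475 ± 12.3 CPM in siTCF19 and 663 ± 19.02 CPM in siNC (SD, n = 3 each), a log2 fold change of -0.48 ± 0.04 (SE) and an edgeR adjusted p of 1.83e-12. SLC25A5 (chromosome X, 119468400 to 119471319, plus strand) had 5004, 4717 and 5133 counts in siTCF19, against 6343, 7214 and 7005 in siNC. It fell to the same degree, by 0.48 on the log2 scale (± 0.04 SE, edgeR adjusted p = 4.31e-12), again without overlap between groups. SLC25A3 averaged 561 ± 2.92 CPM in siTCF19 and 698 ± 19.3 CPM in siNC, a log2 fold change of -0.31 (edgeR adjusted p = 4.35e-08). SLC25A4, the ADP/ATP carrier of muscle and heart, averaged 105 ± 5.07 CPM in siTCF19 and 126 ± 2.48 CPM in siNC, a log2 fold change of -0.26 (edgeR adjusted p = 6.77e-05).

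Near-identical copies could take reads from these genes, since the human genome holds many processed copies of the ADP/ATP carriers, and the sources used here do not give how reads with several matches were counted. The 15 annotated pseudogenes of SLC25A5 and SLC25A6 in the table held 10, 6 and 11 counts in all in siTCF19 and 10, 7 and 7 in siNC, and SLC25A5 alone held at least 4717 in each library. The ratio of SLC25A5 to SLC25A6 in FPKM was 0.957, 0.984 and 0.982 in siTCF19 and 0.9498, 0.970 and 1.005 in siNC. The ratio thus stood in the same range in both groups while both genes fell.

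The makeup of the family's summed FPKM differed between the groups. The ADP/ATP carriers made up 41.9% to 42.0% of all carrier FPKM in siTCF19, against 47.9% to 48.1% in siNC. With SLC25A3 added, the group's share averaged 47.7% in siTCF19 and 53.9% in siNC. The carriers of cofactors, nucleotides and glutathione took 18.99% in siTCF19 and 15.2% in siNC, and those of amino acids 8.18% in siTCF19 and 6.86% in siNC, without overlap between groups in either case. Shares of 1 total are tied to each other, so a smaller share of 1 group raises the others. These shares also depend on the annotated exonic length by which FPKM divides. On CPM, without that division, the ADP/ATP and phosphate carriers summed to 1435 to 1490 of 3549 to 3669 CPM in siTCF19. In siNC they summed to 1904 to 1981 of 4116 to 4268 CPM, and in both groups this was a smaller part than on FPKM.

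**Figure D2:**
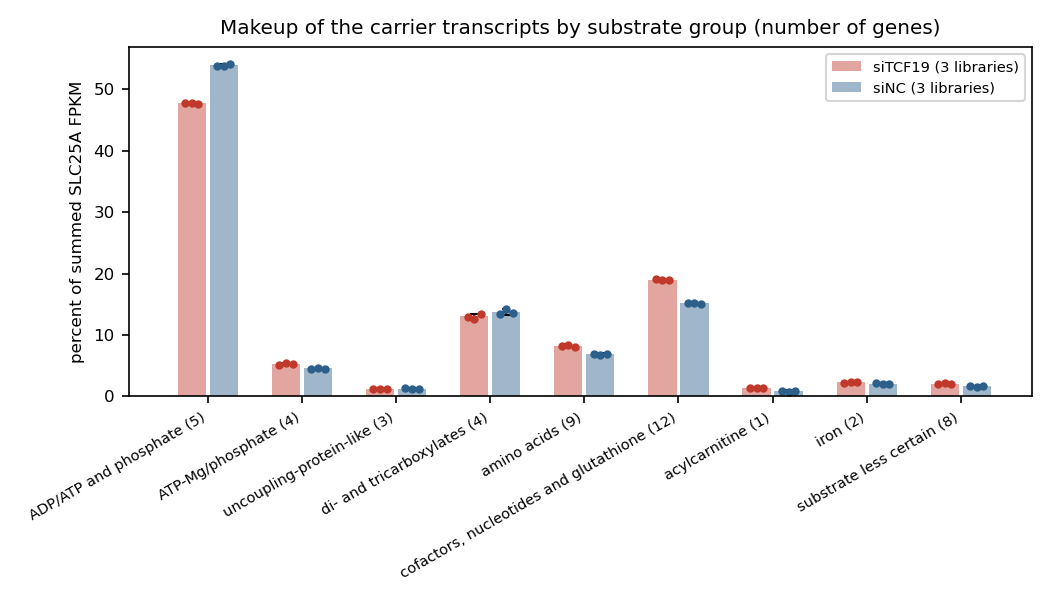
Percent of summed carrier FPKM (vertical axis) held by each substrate group in siTCF19 and siNC, with bars for the mean of 3 libraries, points for libraries and error bars for the SD. The ADP/ATP and phosphate bar averages 47.7% in siTCF19 and 53.9% in siNC, and the cofactor bar 18.99% in siTCF19 and 15.2% in siNC.

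A further group of carriers, most of them regulated by calcium, exchange ATP-Mg against phosphate and so set the size of the adenine nucleotide pool inside mitochondria. SLC25A24 fell to 87.95 ± 8.49 CPM in siTCF19, against 102 ± 1.25 CPM in siNC (log2 fold change -0.22, edgeR adjusted p = 0.00224). SLC25A23 and SLC25A25, of the same group, were not called, with log2 fold changes of -0.03 and 0.0066 and groups that overlapped, and SLC25A41 was too low to test, at 7 to 10 counts in siTCF19 and 4 to 9 in siNC.

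The carriers related to uncoupling proteins held 2 falls in 3 tested genes. SLC25A30 had 777, 732 and 799 counts in siTCF19, against 1021, 1012 and 1062 in siNC, groups well apart, with a log2 fold change of -0.44 (edgeR adjusted p = 1.99e-07). SLC25A14 was called lower (log2 fold change -0.33, edgeR adjusted p = 0.0281), but its groups overlapped at 9.87 to 12.4 CPM in siTCF19 and 12.4 to 15.7 CPM in siNC, and its adjusted p was 0.154 without siTCF19 replicate 1, 0.0850 without siTCF19 replicate 2 and 0.197 without siNC replicate 1. SLC25A27 was not called (0.04). The uncoupling proteins UCP1, UCP2 and UCP3, carriers with other symbols, had log2 fold changes of -0.18, -0.09 and -0.03 and were not called.

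The carriers of di- and tricarboxylates link the citric acid cycle to the cytosol, and 3 of 4 fell. SLC25A11, the oxoglutarate/malate carrier of the malate-aspartate shuttle (chromosome 17, 4937130 to 4940251, minus strand), had 1545, 1355 and 1663 counts in siTCF19, against 2434, 2762 and 2498 in siNC. Its highest siTCF19 library stood well below its lowest siNC library, at 107 CPM and 160 CPM. The log2 fold change was -0.77 ± 0.06 (SE), a 1.703-fold fall with a 95% interval of 1.58 to 1.84, and the edgeR adjusted p was 4.96e-15. On the opposite strand, RNF167 shares 244 of the 2669 exonic bases of SLC25A11 (9.14%) and rose, with 3717, 3482 and 3805 counts in siTCF19, against 2459, 2774 and 2625 in siNC. The sources used here do not give whether counting used strand, and the part of shared reads in either value was not tested.

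SLC25A1, the citrate carrier that supplies acetyl units for fatty acid and sterol synthesis, had 3070, 2853 and 3156 counts in siTCF19, against 3038, 3698 and 3372 in siNC. Scaled by library the groups did not overlap, at 191 to 203 CPM in siTCF19 and 209 to 235 CPM in siNC, a log2 fold change of -0.17 (edgeR adjusted p = 0.00567), which was not called without siNC replicate 2 (-0.11, adjusted p = 0.0763). SLC25A10, the dicarboxylate carrier, had a log2 fold change of -0.24 (edgeR adjusted p = 0.0248), with an adjusted p of 0.247 without siTCF19 replicate 2 and 0.210 without siNC replicate 2. On the same strand, 46.6% of its exonic bases are also annotated to AC139530.2, which has 0 counts in each library. SLC25A21, the oxoadipate carrier, had 6 to 14 counts in siTCF19 and 3 to 12 in siNC and was not called.

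**Figure D3:**
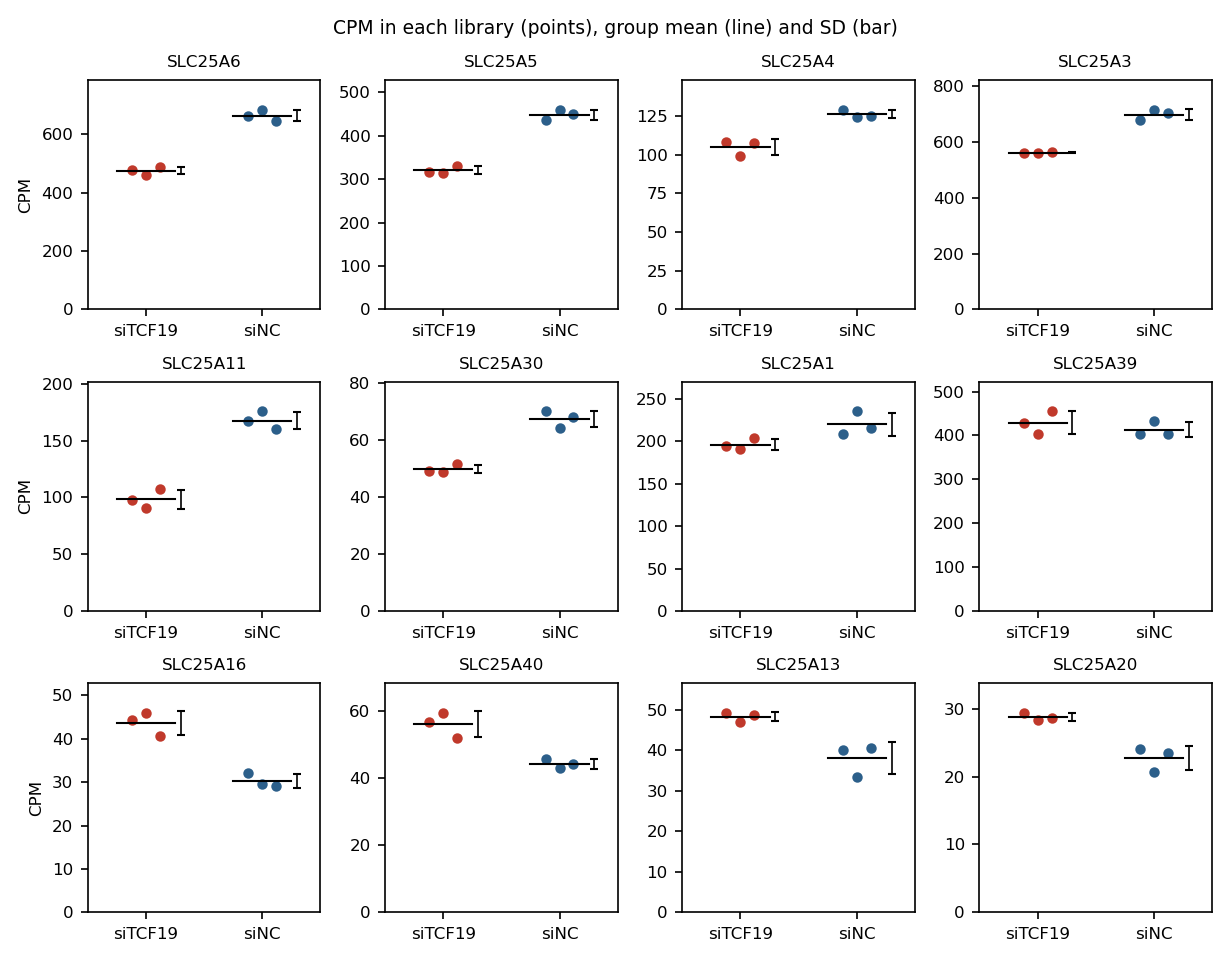
CPM in each library (points) of 12 carriers in siTCF19 and siNC, with lines for the group mean and bars for the SD, each panel on its own axis from 0. SLC25A11 lies at 90.5 to 107 CPM in siTCF19 and 160 to 176 CPM in siNC, while SLC25A39 overlaps between the groups.

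Of the amino acid carriers, 1 rose, 1 fell and 6 were not called. SLC25A13 and SLC25A12 are the aspartate/glutamate carriers of the malate-aspartate shuttle. SLC25A13 (chromosome 7, 96120220 to 96322147, minus strand) rose to 48.3 ± 1.14 CPM in siTCF19, against 38.01 ± 3.93 CPM in siNC, a log2 fold change of 0.35 (edgeR adjusted p = 0.000148), and SLC25A12 stood at 31.9 ± 0.843 CPM in siTCF19 and 31.6 ± 2.66 CPM in siNC. The glutamate carrier SLC25A22 fell by 0.24 on the log2 scale (edgeR adjusted p = 0.00273), with no overlap. The values of the other tested genes were -0.15 for the glycine carrier SLC25A38, -0.05 for the second glutamate carrier SLC25A18, -0.04 for the basic amino acid carrier SLC25A29, -0.01 for SLC25A44, a carrier of branched-chain amino acids, and 0.01 for the ornithine carrier SLC25A15. SLC25A38 had an adjusted p of 0.0734, and of 0.0342 without siTCF19 replicate 2. SLC25A2, the other ornithine carrier, had 3 to 7 counts in siTCF19 and 5 to 9 in siNC and was not tested.

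Carriers of cofactors, nucleotides and glutathione held 2 rises, 2 falls and 6 genes that were not called. SLC25A16, linked to coenzyme A transport and with the largest called rise of the family (chromosome 10, 68477999 to 68527474, minus strand), had 701, 688 and 629 counts in siTCF19, against 466, 466 and 453 in siNC. All siTCF19 libraries stood above all siNC libraries, with means of 43.6 ± 2.77 CPM in siTCF19 and 30.25 ± 1.57 CPM in siNC, a log2 fold change of 0.53 ± 0.08 (SE) and an edgeR adjusted p of 1.83e-07. SLC25A42, also a coenzyme A carrier, was not called (-0.04). SLC25A40, which like SLC25A39 serves glutathione import into mitochondria, rose to 55.99 ± 3.87 CPM in siTCF19, against 44.2 ± 1.37 CPM in siNC (log2 fold change 0.34, edgeR adjusted p = 5.75e-05).

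SLC25A39, the more abundant of the glutathione pair, had 6788, 6045 and 7053 counts in siTCF19, against 5866, 6799 and 6301 in siNC. The groups overlapped, and the log2 fold change was 0.05 with a 95% interval of -0.04 to 0.15 (edgeR adjusted p = 0.370). SLC25A39 thus took a larger share of carrier FPKM in siTCF19 (10.8% to 11.6%) than in siNC (8.80% to 9.07%) while its own CPM did not pass the test.

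SLC25A17, a peroxisomal carrier of coenzyme A and related cofactors, had a log2 fold change of -0.20 (edgeR adjusted p = 0.0163), with an adjusted p of 0.0519 without siTCF19 replicate 2, 0.0676 without siTCF19 replicate 3 and 0.0772 without siNC replicate 1. The S-adenosylmethionine carrier SLC25A26 was called lower (-0.33, edgeR adjusted p = 0.00732), with groups that overlapped, at 16.197 to 21.02 CPM in siTCF19 and 20.7 to 24.9 CPM in siNC. Its adjusted p was 0.105 without siTCF19 replicate 1, and 15.5% of its exonic bases lie opposite LRIG1, which was not called (-0.12). The pyrimidine nucleotide carriers SLC25A33 and SLC25A36 had log2 fold changes of 0.05 and 0.11, and the NAD+ carrier SLC25A51 a value of 0.10. SLC25A36 had an adjusted p of 0.116, and of 0.0222 without siTCF19 replicate 3. The folate carrier SLC25A32 had 6 to 13 counts in siTCF19 and 5 to 17 in siNC, with 69.7% of its exonic bases also annotated to AC012213.5 on the same strand, at 0 counts, and SLC25A52, a near copy of SLC25A51, had 0 counts in siTCF19 and 1 in siNC.

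The single acylcarnitine carrier, SLC25A20, brings long-chain acylcarnitines in for fatty acid oxidation. It had 464, 423 and 444 counts in siTCF19, against 350, 325 and 365 in siNC, with all siTCF19 libraries above all siNC libraries. Its log2 fold change was 0.34 (edgeR adjusted p = 0.00118). The mitoferrins SLC25A28 and SLC25A37, iron carriers for haem and iron-sulfur cluster synthesis, had log2 fold changes of -0.16 and -0.04 and were not called (edgeR adjusted p = 0.0671 and 0.708).

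Among carriers whose substrate is less certain, 2 of 6 tested genes rose. SLC25A46 averaged 84.3 ± 9.13 CPM in siTCF19 and 68.7 ± 3.65 CPM in siNC, a log2 fold change of 0.30 (edgeR adjusted p = 0.000241). SLC25A45 had a log2 fold change of 0.34 (edgeR adjusted p = 0.0210), with an adjusted p of 0.195 without siTCF19 replicate 2 and 0.0701 without siNC replicate 2. SLC25A43 (-0.23), SLC25A35 (-0.15), SLC25A53 (-0.0012) and SLC25A34 (0.70) were not called. SLC25A43 had an adjusted p of 0.0562, and of 0.0141 without siTCF19 replicate 3 and 0.0485 without siNC replicate 1. SLC25A34, with the highest positive estimate among the tested carriers, rested on 11, 10 and 22 counts in siTCF19 and 9, 11 and 6 in siNC, with a 95% interval of the log2 fold change from -0.20 to 1.61. SLC25A47 had 3, 0 and 7 counts in siTCF19 and 0 in each siNC library, SLC25A48 had 1 count in 1 library of each group, and neither was tested.

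Carriers with like substrates were compared as the log2 ratio of their FPKM within each library, for 8 pairs, by a two-sided exact permutation test whose smallest possible p is 0.1 with 3 against 3 libraries. The groups did not overlap for 3 of the 8 pairs. For single genes, siTCF19 lay wholly above siNC in 24.4% of those tested and wholly below in 24.9%. SLC25A12 over SLC25A13 averaged -1.08 ± 0.07 in siTCF19 and -0.74 ± 0.10 in siNC, SLC25A16 over SLC25A42 0.54 ± 0.10 in siTCF19 and -0.02 ± 0.21 in siNC, and SLC25A39 over SLC25A40 3.47 ± 0.19 in siTCF19 and 3.75 ± 0.10 in siNC (SD, n = 3 each, exact p = 0.1 for each, 0.267 adjusted over the 8 pairs). The balance of the aspartate/glutamate carriers lay further toward SLC25A13 in each siTCF19 library. That of the glutathione carriers lay further toward SLC25A40, but the groups nearly met, at 3.66 in siTCF19 replicate 3 and 3.67 in siNC replicate 1. The other 5 pairs, SLC25A5/SLC25A6, SLC25A24/SLC25A25, SLC25A22/SLC25A18, SLC25A33/SLC25A36 and SLC25A28/SLC25A37, overlapped, with differences between group means of -0.00054, -0.23, -0.20, -0.06 and -0.13 on the log2 scale.

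**Figure D4:**
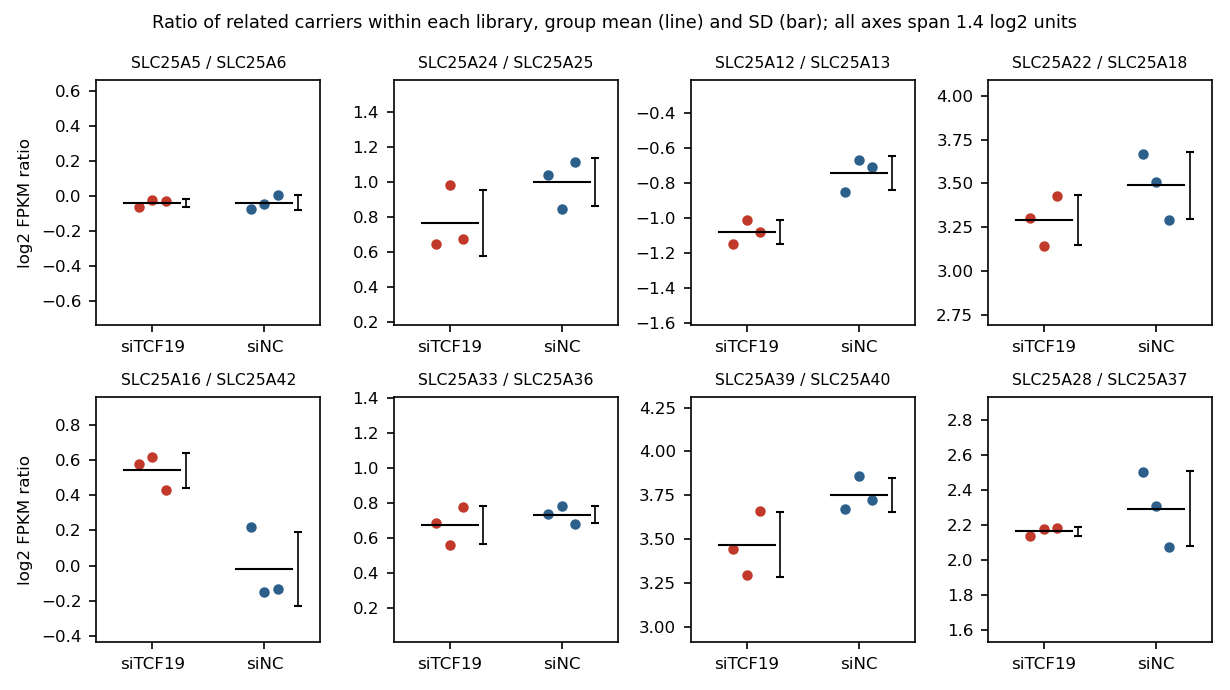
Log2 FPKM ratio within each library (points) for 8 pairs of carriers with like substrates in siTCF19 and siNC, with lines for the group mean and bars for the SD, each vertical axis spanning the same number of log2 units. Groups do not overlap for SLC25A12/SLC25A13, SLC25A16/SLC25A42 and, narrowly, SLC25A39/SLC25A40, and SLC25A5/SLC25A6 sits at the same level in both.

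Genes that work with the carriers were followed through 10 lists. Of the 5 carrier family members with other symbols, MTCH2, an outer membrane insertase, rose by 0.14 on the log2 scale (edgeR adjusted p = 0.0135, and 0.0751 without siNC replicate 3) and 4 were not called. The import route of the carriers held 3 rises and 7 falls in 15 tested genes. The pore TOMM40 (-0.32), its receptor TOMM22 (-0.32) and the intermembrane chaperones TIMM13 (-0.29) and TIMM10 (-0.35) were among the falls. The related chaperones TIMM10B (0.25, edgeR adjusted p = 0.00564) and TIMM8B (0.18, edgeR adjusted p = 0.0104) rose. TIMM9 (0.18) and TIMM8A (-0.12) were not called, so these chaperones did not move together. TOMM6 is at 0 in each library. Of the 3 outer membrane pores, VDAC1 fell (-0.28) and VDAC2 was called lower (-0.12, edgeR adjusted p = 0.0313), with an adjusted p of 0.0709 with the replicate number as a block and of 0.0699 to 0.128 without siTCF19 replicate 1, siTCF19 replicate 2, siNC replicate 1 or siNC replicate 3.

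Transporters of the inner membrane outside the family held 4 rises and 4 falls in 11 tested genes. The sideroflexin SFXN5 (0.67) and the pyruvate carrier subunit MPC1 (0.45) rose, and SFXN2 (-0.41), another sideroflexin, fell. MPC2, the other pyruvate carrier subunit, was called lower (-0.36, edgeR adjusted p = 0.000319), so the subunits went in opposite directions. The calcium uniporter list held 3 rises and 1 fall in 7 genes, with MCUB (0.51) and SMDT1 (0.40) higher and MCUR1 (-0.24) lower.

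The next 3 lists hold enzymes that make or use what the carriers move. The malate-aspartate and citrate shuttle list held 0 rises and 6 falls in 11 tested genes, with GOT1 (-0.56), ME2 (-0.48), IDH1 (-0.37) and CS (-0.32) among the falls, and its median log2 fold change was -0.22. The glutamine, ornithine and proline list held 0 rises and 6 falls in 10, among them the proline enzyme PYCR1 (-0.87), the arginine enzyme ASL (-0.70), GLUD1 (-0.29) and ALDH18A1 (-0.24), with a median of -0.27. The haem, iron-sulfur and mitochondrial folate list held 1 rise and 3 falls in 9. The 4 called were enzymes of the folate cycle: SHMT2 (-0.98), MTHFD2 (-0.89) and MTHFD1L (-0.30) fell and MTHFD2L (0.56) rose. Of the 5 not called, FECH (-0.12, edgeR adjusted p = 0.0522), which makes haem, and ISCU (-0.10), the iron-sulfur scaffold, had siTCF19 libraries wholly below siNC.

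In the carnitine shuttle, CPT1A, which makes the acylcarnitines that SLC25A20 carries, rose to 308 ± 4.92 CPM in siTCF19, against 209 ± 4.25 CPM in siNC (log2 fold change 0.56, edgeR adjusted p = 1.53e-13). CPT2, which acts after SLC25A20, was called lower (-0.23, edgeR adjusted p = 0.0206), with adjusted p-values of 0.0573 to 0.106 without siTCF19 replicate 1, siTCF19 replicate 2, siNC replicate 2 or siNC replicate 3. The other 3 genes of that list were not called. Of 8 factors of mitochondrial biogenesis, 6 fell, with the mitochondrial RNA polymerase POLRMT (-0.92), the coactivator PPARGC1B (-0.56) and the transcription factors NRF1 (-0.34) and ESRRA (-0.27) among them. These counts are descriptions beside the 20.7% and 20.8% of all tested genes called higher and lower. Among genes averaging 10 CPM or more, 54.4% were called in either direction.

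**Figure D5:**
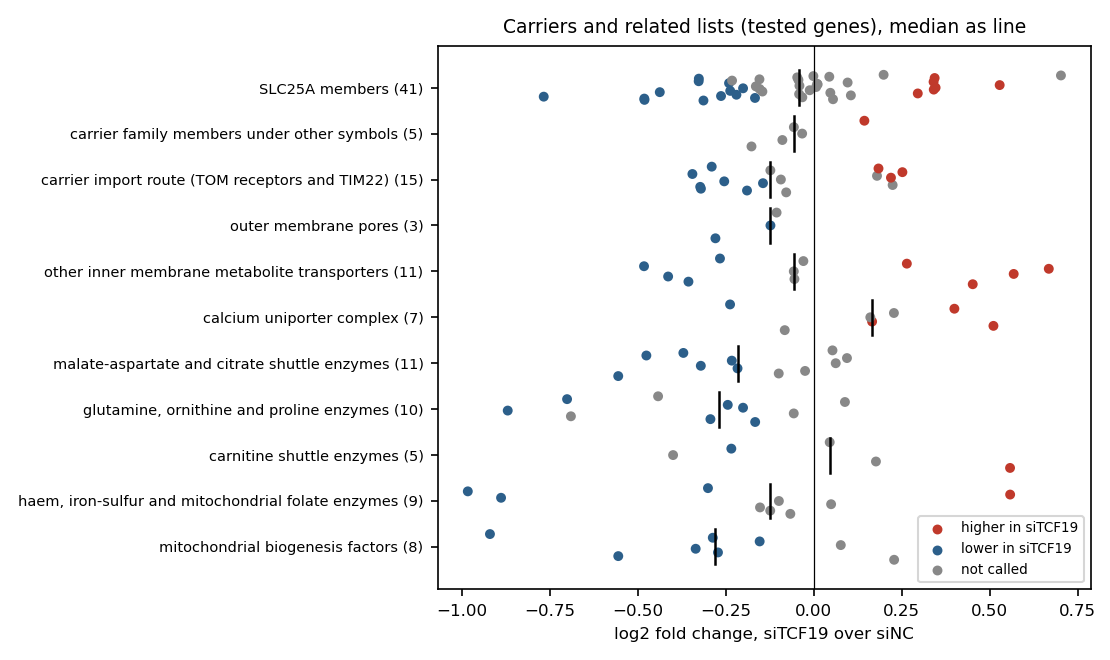
Log2 fold change of siTCF19 over siNC (horizontal axis) for the tested carriers and the tested genes of 10 related lists, with 1 point per gene, a vertical bar for each list's median and colour for the call at an edgeR adjusted p under 0.05. The carriers' median is -0.04, and the medians of the shuttle enzymes and of the glutamine, ornithine and proline enzymes are -0.22 and -0.27.

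The authors' deposited table lists 5 carriers higher and 10 lower at an adjusted p under 0.05, and all 15 were also called here with the same sign. The 4 called here and not in the authors' deposited table were SLC25A17, SLC25A10, SLC25A14 and SLC25A45. Both rest on the same libraries, and the log2 fold changes differed by at most 0.0052.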

How the data were processed

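RNA-seq was compared between siTCF19 and siNC Ishikawa cells, 3 libraries each. The authors deposited 1 table. Per the file headers it holds, for each library, whole-number counts and FPKM, and for each gene the authors' own comparison: group signal means, log2 fold change, p-value and adjusted p-value. The sources used here do not name the tool behind that comparison. Per the submitters' processing notes, the aligner was HISAT2 2.0.5, the counter featureCounts 1.5.0-p3 and the build hg38. Per the labels' protocols, extraction used Trizol, and library preparation a NEBNext Ultra kit. The sources used here state neither the strand setting nor how reads with several matches were handled. The starts and ends of all 48 carriers in the table equal those of the GENCODE annotation supplied.

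Counts were tested as deposited with edgeR 4.0.16 in R 4.3.3 (filterByExpr, TMM, glmQLFit and glmQLFTest with group as the only term, Benjamini-Hochberg over 17299 genes), with calls at an adjusted p under 0.05. Errors of CPM and FPKM are SDs over 3 libraries. Other gene adjusted p-values are from edgeR unless another tool is named. Alternatives were scaling by RLE, by upper quartiles or by library size only, leaving out the filter, a filter at 1 CPM in 3 or more libraries, limma-voom and limma-trend (limma 3.58.1) on log2(FPKM + 1) or log2(FPKM + 0.1), DESeq2 1.42.0, a test of protein-coding genes alone, a block for the replicate number, a stricter threshold (adjusted p under 0.01), and omission of each library in turn. Promoters came from RefSeq (GRCh38.p14). Python 3.11.15, numpy 2.4.6, pandas 2.3.3, scipy 1.17.1 and matplotlib 3.10.9 were used.

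In simulated counts for this comparison over 16989 genes, the edgeR step recovered 32 of 50 genes changed by 0.3 on the log2 scale, 48 of 50 changed by 0.5, and 50 of 50 changed by 1 and by 2, with 17 false calls among 16789 unchanged genes. The simulation gave all genes 1 common dispersion and changed only genes above a set level. Those were a far smaller share than the 41.5% of tested genes called in the data. Its counts describe the edgeR step under those settings, and recovery for the carriers was not tested. The carriers, the 10 lists, the pairs and the rules were chosen with earlier results of these data known. The values of 1 carrier and of some genes of the related lists enter the counts and are not reported here. Values per library are given by rule for called carriers whose log2 fold change reached 0.5 in size and for the 4 with the highest FPKM. Others with values per library, and the list of pseudogenes, were chosen after their values were seen. From each related list up to 4 called genes with the lowest p are named. MPC2, TIMM8A, TIMM8B, TIMM9 and TIMM10B were added beside them after their values were seen. Intervals and floors cover counting error or the spread between libraries only, since PCR copies cannot be recognised in a count table.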

Additional observations from a re-analysis of the deposited data

How the results depend on the processing

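Across the alternatives, 5 to 8 carriers were called higher and 9 to 14 lower, each within 1.5 times the values of 6 and 13. Leaving out 1 library gave 5 to 7 higher and 11 to 13 lower. Of the 19 called carriers, 13 kept their call in each alternative run for single genes, and SLC25A1, SLC25A17, SLC25A10, SLC25A26, SLC25A14 and SLC25A45 lost it in at least 1. Library-size-only scaling ended the calls of SLC25A1 (edgeR adjusted p = 0.0706), SLC25A17 (0.0963), SLC25A10 (0.0952), SLC25A14 (0.0760), VDAC2 (0.284) and CPT2 (0.0897). DESeq2 ended those of SLC25A17 (adjusted p = 0.0518), SLC25A10 (0.0978), SLC25A14 (0.112), SLC25A45 (0.0921) and CPT2 (0.0728), and limma-trend on log2(FPKM + 1) those of SLC25A10 (0.119), SLC25A26 (0.0806), SLC25A14 (0.0808), SLC25A45 (0.116) and CPT2 (0.101). Library-size-only scaling moved the median of all genes by 0.06 on the log2 scale and that of the carriers to 0.0188, and it added SLC25A39 (0.12) and SLC25A36 (0.17) to the calls. Both limma-trend fits added SLC25A28 (adjusted p = 0.0399 and 0.0393), and limma-voom (adjusted p = 0.0494) and protein-coding genes only (edgeR adjusted p = 0.0493) added SLC25A43. Leaving out 1 library put the median log2 fold change of the members between -0.11 (without siNC replicate 1) and -0.036 (without siTCF19 replicate 2). The difference in the family's share, -0.0403 percentage points of counts, was -0.0643 points of summed FPKM. TCF19 ran from -2.26 to -2.13 with 1 library left out.

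With the replicate number as a block, 6 carriers were higher and 13 lower, and the only call named here that it ended was VDAC2. The deviations of same-numbered libraries from their group means had correlations of 0.0086, -0.024 and 0.021. These weigh all tested genes alike, low counts included, so they could miss a modest shared effect and do not decide whether the libraries are paired. The labels give no day or batch, and the numbers were not taken to pair the libraries.

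Carriers that were called in neither setting changed sign. With library-size-only scaling these were SLC25A23 (0.0278), SLC25A29 (0.0188), SLC25A44 (0.0486), SLC25A37 (0.0190), SLC25A42 (0.0166), SLC25A18 (0.0128) and SLC25A53 (0.0588). SLC25A53 also did so with RLE (9.5e-05) and upper-quartile scaling (0.0048), the 1 CPM filter (0.00058) and protein-coding genes only (0.0059). With 1 library left out, the ranges that crossed 0 were -0.0742 to 0.0077 for SLC25A23, -0.0873 to 0.0151 for SLC25A29, -0.0387 to 0.0058 for SLC25A44, -0.0433 to 0.0951 for SLC25A25, -0.0964 to 0.0402 for SLC25A37, -0.0143 to 0.0387 for SLC25A15, -0.0400 to 0.0803 for SLC25A12, -0.12 to 0.0087 for SLC25A42, -0.11 to 0.0290 for SLC25A18, -0.0398 to 0.14 for SLC25A27, -0.0208 to 0.0343 for SLC25A53 and -0.21 to 0.53 for SLC25A21. The cause was not tested. SLC25A47 was called only without a filter (edgeR adjusted p = 0.0450), and DESeq2 gave it no adjusted p. At this depth the 7 untested carriers were below the filter.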
